A study of Mus musculus with 9 samples.

Results

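Eosinophil progenitors (EoP) were compared with granulocyte-macrophage progenitors (GMP) by RNA sequencing, over the 2 libraries titled as EoP RNA and the 2 titled as GMP RNA, 4 of the 9 libraries of the study. Both cell types were sorted at homeostasis, without treatment, from the bone marrow of Balb/c mice, which was pooled. By the labels, GMP were lineage-negative, CD34-positive, CD16/32-positive cells with high c-kit. EoP were lineage-negative, CD34-positive cells with low c-kit that carried CD125, the alpha chain of the interleukin-5 receptor. Each cell type was sorted on 2 independent occasions, 1 library per sort. Whether the pools held different mice is not stated, and p-values reflect only the variation from sort to sort. The age and sex of the mice are not given in the labels. The tables list 23471 genes, of which 14324 were tested, and 8788 reached a mean of at least 10 CPM (counts scaled to library size) in GMP or in EoP and are described here.

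GMP give rise to neutrophils, monocytes and macrophages, and in the mouse marrow the EoP is the first stage committed to the eosinophil lineage. Interleukin-5, acting through CD125, drives the growth of eosinophil precursors, and GATA-1, PU.1 and C/EBP factors set their gene expression. Maturing eosinophils fill their granules with basic proteins, carry receptors for chemokines and lipids, and make lipid mediators and reactive oxygen.

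Genes of the sort gates and of each cell type were read first. Mpo, a neutrophil granule enzyme that marks GMP, was at 29891 and 28330 CPM in GMP and 1922 and 2376 CPM in EoP. Elane, another, was at 6487 and 5685 CPM in GMP and 151 and 135 CPM in EoP. Epx, for eosinophil peroxidase, was at 141 and 45.1 CPM in GMP and 26969 and 23218 CPM in EoP, and Il5ra, the gate gene of EoP, at 2.18 and 1.79 CPM in GMP and 436 and 399 CPM in EoP. Kit, by which both gates were drawn, was at 309 and 296 CPM in GMP and 200.0 and 237 CPM in EoP and did not pass (log2 fold change −0.47, SE 0.39, adjusted p = 0.409). The genes of CD16/32, by which GMP were gated, were higher in EoP. Fcgr3, for CD16, was at 27 and 34.7 CPM in GMP and 225 and 190.1 CPM in EoP (log2 fold change 2.75, SE 0.27, adjusted p = 0.000208), and Fcgr2b, for CD32, at 37.2 and 43.4 CPM in GMP and 140.1 and 133 CPM in EoP (log2 fold change 1.76, SE 0.28, adjusted p = 0.0029). Cd34 was at 129.9 and 123 CPM in GMP and 53 and 61.8 CPM in EoP, a fall of 1.14 on the log2 scale (SE 0.33) that did not hold when a GMP or EoP library was dropped, whichever it was (adjusted p = 0.117 to 0.168).

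Of all genes at 10 CPM or more, 14.3% rose and 7.04% fell. Of the markers of other cells at this level, 7 of 12 neutrophil markers fell and 2 rose. Among monocyte, macrophage and dendritic cell markers 12 of 16 fell and 3 rose, and among stem and early progenitor markers 9 of 18 fell and 1 rose. The 2 erythroid markers at this level rose (0 to 2 rises with a library dropped), and of 6 megakaryocyte markers 2 rose and 2 fell. The neutrophil markers summed to 2958 and 1346 CPM in GMP and 1161 and 775 CPM in EoP, and the monocyte list to 2067 and 1707 CPM and to 1540 CPM in each EoP library. Most of the monocyte sum in EoP came from Vcam1, at 1055 and 1000 CPM in EoP, and Emr1, at 270.5 and 235 CPM in EoP, which both rose. Their part in the falls of myeloid genes described below was not tested.

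The GMP libraries were shallower, at 6576661 and 5226653 counts against 9628492 and 12088134 in EoP, yet more genes had a count in them, 19677 and 20542 against 14350 and 14970. Olfactory receptor genes, which are silent in blood cells, had counts in 569 and 785 of 1122 genes in the GMP libraries and in 41 and 88 in EoP, at a mean of 0.132 and 0.134 RPKM (reads per kilobase of transcript, scaled to library total) against 0.00374 and 0.00719. A low level of counts was thus spread over silent genes in both GMP libraries, and the minimum of 10 CPM was used to keep such genes out. Its part in the falls of genes near the minimum was not tested. The Y-linked genes Ddx3y and Eif2s3y had no count in either GMP library. Against a floor of 3 counts over both GMP libraries, Ddx3y was at least 185-fold higher in EoP and Eif2s3y at least 187-fold higher. Xist, the X-linked transcript of female cells, was at 5063 and 3232 CPM in GMP and 1505 and 3796 CPM in EoP and did not pass (log2 fold change −0.65, SE 0.44, adjusted p = 0.314). A difference between the pools in the sex of the mice cannot be told apart from the difference between cell types.

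Of the 8788 genes at 10 CPM or more, 1254 were higher in EoP (14.3% of them) and 619 were lower (7.04%) at an adjusted p under 0.05 (edgeR quasi-likelihood test, Benjamini-Hochberg over all 14324 genes tested). Without the minimum level, 1359 rose (9.49%) and 2453 fell (17.1%), so most falls lay below 10 CPM. The median log2 fold change of the 8788 genes was 0.15. The balance of rises and falls depended on the scaling. Under TMM factors, 67% of the called genes rose. The share was 50.8% under upper quartile factors (878 rose and 849 fell, median shifted by −0.18) and 27.7% under library size alone (547 and 1430, −0.47). Library size alone divides by a total that holds the granule protein genes. Of these, Prg2 alone took 15.5% and 13.2% of the EoP counts, against 0.123% and 0.0302% in GMP. A TMM fit without the granule protein genes gave 1140 rises and 646 falls. Their part in the lower shares was not tested. The deposited RPKM gave a share of rises of 88.7% (2213 and 282, 0.27). This setting added 0.5 to each value and also changed the test (limma) and the filter, so it is not a change of scaling alone. The listed counts were 27.5% and 25.9% of the estimated library total behind RPKM in GMP and 45.4% and 45.2% in EoP. With 1 of the 4 GMP and EoP libraries dropped from the fit, here and in each list below, fewer genes passed. Without GMP replicate 1, 431 rose and 232 fell, and dropping the other GMP library left 541 and 226. Dropping EoP replicate 1 left 609 rises and 299 falls, and dropping the other EoP library 839 and 288. Of the calls, 362 of the 1254 and 185 of the 619 kept their call in all 4 of these fits, which had fewer samples. The 4 libraries did not overlap between cell types in 69.5% of the 8788 genes. In the text, a gene rose or fell only where it passed this test, and values stand as replicate 1 and replicate 2. A value followed by its standard error (SE) in brackets is a log2 fold change. Unless stated otherwise, the named calls held in all 4 fits that drop a GMP or EoP library. They kept their direction under all the scalings named above, and the EoP libraries did not overlap the GMP libraries.

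**Figure D1:**
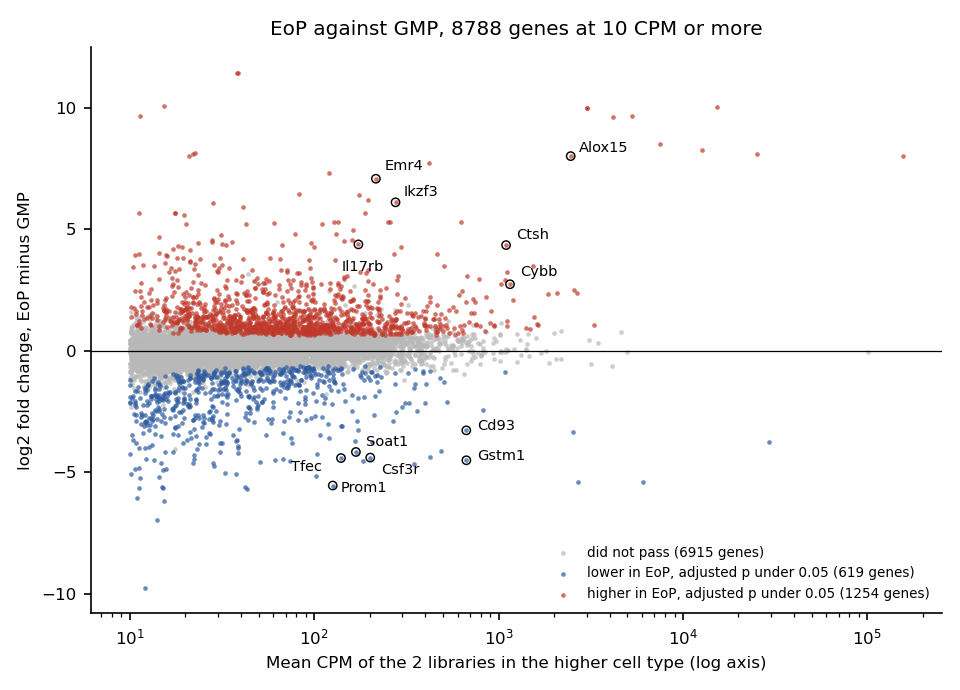
Log2 fold change of EoP against GMP (vertical axis) against the mean CPM of the 2 libraries in the higher cell type (horizontal log axis) for 8788 genes. Red points are the 1254 genes that rose, blue points the 619 that fell and grey points the 6915 that did not pass. Circled genes are named in the text, and the fitted value of a gene with no count in 1 cell type depends on the prior count of the fit.

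Among cytokine receptors, with shares of all genes of 14.3% for rises and 7.04% for falls as the background for each list from here on, receptors for interleukin-25 and interleukin-33 rose in EoP and those for interleukin-6, G-CSF and the macrophage growth factor fell. Of 38 genes for cytokine and growth factor receptors at 10 CPM or more, 9 rose and 11 fell (23.7% and 28.9%, median 0.08, and −0.38 when scaled to library size alone). With a library dropped there were 6 to 9 rises and 6 to 10 falls. The rises include Il5ra, by whose protein EoP were sorted, and Kit, the other gate gene in the list, did not pass. Il17rb, the receptor subunit for interleukin-25, was at 7.02 and 9.83 CPM in GMP and 168 and 179.5 CPM in EoP, a rise of 20.7-fold (log2 fold change 4.37, SE 0.26, adjusted p = 2.31e-05). The EoP values were more than 10 times the GMP values in every pairing of libraries. Tgfbr2, the type II receptor for TGF-beta, was at 23.1 and 25.2 CPM in GMP and 67.8 and 77.9 CPM in EoP (log2 fold change 1.59, SE 0.25, adjusted p = 0.00246). Acvr1b, an activin receptor, rose by 1.75 (SE 0.27) and Il18rap, the accessory chain for interleukin-18, by 1.72 (SE 0.31). Il1rl1, the interleukin-33 receptor ST2, was at 19 and 23.4 CPM in GMP and 76.9 and 75.9 CPM in EoP and rose by 1.85 (SE 0.43), a call lost without GMP replicate 1 (adjusted p = 0.119) or GMP replicate 2 (0.0644).

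Il6ra, the ligand-binding chain for interleukin-6, was at 77.7 and 69.6 CPM in GMP and 0.944 and 5.14 CPM in EoP (log2 fold change −4.53, SE 0.60, adjusted p = 0.00107). Its signalling partner gp130, encoded by Il6st, was at 201 and 142 CPM in GMP and 12.2 and 33.2 CPM in EoP (log2 fold change −2.91, SE 0.48, adjusted p = 0.0036). Both receptor chains were low in the EoP libraries, although the 2 EoP values of each differed by more than the GMP values. Csf3r, for the receptor of the granulocyte growth factor G-CSF, was at 206 and 196 CPM in GMP and 8.37 and 10.6 CPM in EoP, and Csf1r, for the macrophage growth factor receptor, at 102 and 113 CPM in GMP and 4.72 and 14.1 CPM in EoP. Csf3r fell by 4.40 on the log2 scale (SE 0.33), and Csf1r fell by 3.49 (SE 0.49). Met, the receptor of hepatocyte growth factor, fell from 95 and 55.9 CPM in GMP to 2.83 and 7.89 CPM in EoP (log2 fold change −3.78, SE 0.53, adjusted p = 0.00147). In the TNF receptor family Cd27 (log2 fold change −3.56, SE 0.52) and Tnfrsf1b (−2.19, SE 0.30) fell. Below the receptors, 7 of 24 genes for JAK-STAT signalling rose and 0 fell, against 1 and 2 when scaled to library size alone, and none of these calls held in all 4 fits with a library left out. Cish, a feedback inhibitor induced by STAT5, was at 0.605 and 3.13 CPM in GMP and 27.7 and 9.26 CPM in EoP (log2 fold change 3.34, SE 0.79, adjusted p = 0.0136). The adjusted p of Cish was 0.109 when the first GMP library was dropped and 0.0784 when the first EoP library was.

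G protein-coupled receptors (GPCRs) for chemokines, lipids and nucleotides rose more often than they fell. Of 34 genes for these receptors at 10 CPM or more, 16 rose and 6 fell (47.1% and 17.6%, median 1.32), and 13 to 18 rises and 2 to 5 falls were counted with a library dropped. Emr4, an adhesion-type receptor of myeloid cells, was at 1.81 and 1.34 CPM in GMP and 187 and 245 CPM in EoP, a 134-fold rise (log2 fold change 7.07, SE 0.37, adjusted p = 2.31e-05). Its relative Emr1, which encodes the macrophage and eosinophil antigen F4/80, was at 5.45 and 7.6 CPM in GMP and 270.5 and 235 CPM in EoP (log2 fold change 5.28, SE 0.41). Both genes were under 10 CPM in both GMP libraries and over 100 CPM in both EoP libraries. P2ry14, a receptor for UDP-glucose, was at 2.3 and 5.21 CPM in GMP and 214 and 162 CPM in EoP (log2 fold change 5.66, SE 0.46, adjusted p = 8.39e-05). Adora3, the A3 adenosine receptor, was at 3.03 and 2.83 CPM in GMP and 118 and 102 CPM in EoP (log2 fold change 5.22, SE 0.30, adjusted p = 2.31e-05). P2ry10, a lysophospholipid receptor gene, was at 0.242 and 1.94 CPM in GMP and 17.2 and 14.2 CPM in EoP (3.92, SE 0.60). In all 3 the lowest EoP value was at least 7 times the highest GMP value.

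In the other direction, Ccr2, the receptor that draws monocytes out of the marrow, was at 136 and 103 CPM in GMP and 11.7 and 17.4 CPM in EoP (log2 fold change −3.03, SE 0.30, adjusted p = 0.000196). Cx3cr1, the fractalkine receptor of monocytes, fell from 21.4 and 17 CPM in GMP to 2.12 and 2.74 CPM in EoP (log2 fold change −2.97, SE 0.46), and S1pr3, a sphingosine-1-phosphate receptor, fell by 2.27 (SE 0.40), a call lost without GMP replicate 1 (adjusted p = 0.0549). The proteins that turn GPCR signals off were divided. Rgs18 (1.74, SE 0.25), the receptor kinase Grk6 (1.52, SE 0.25) and the arrestin Arrb2 (1.51, SE 0.23) rose. Rgs10 and the other arrestin gene Arrb1 fell, calls that were lost whichever library was dropped. Of 29 genes for G protein signalling at 10 CPM or more, 7 rose and 3 fell (24.1% and 10.3%), against 4 and 5 when scaled to library size alone, with 3 to 6 rises and 0 falls when a library was dropped.

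**Figure D2:**
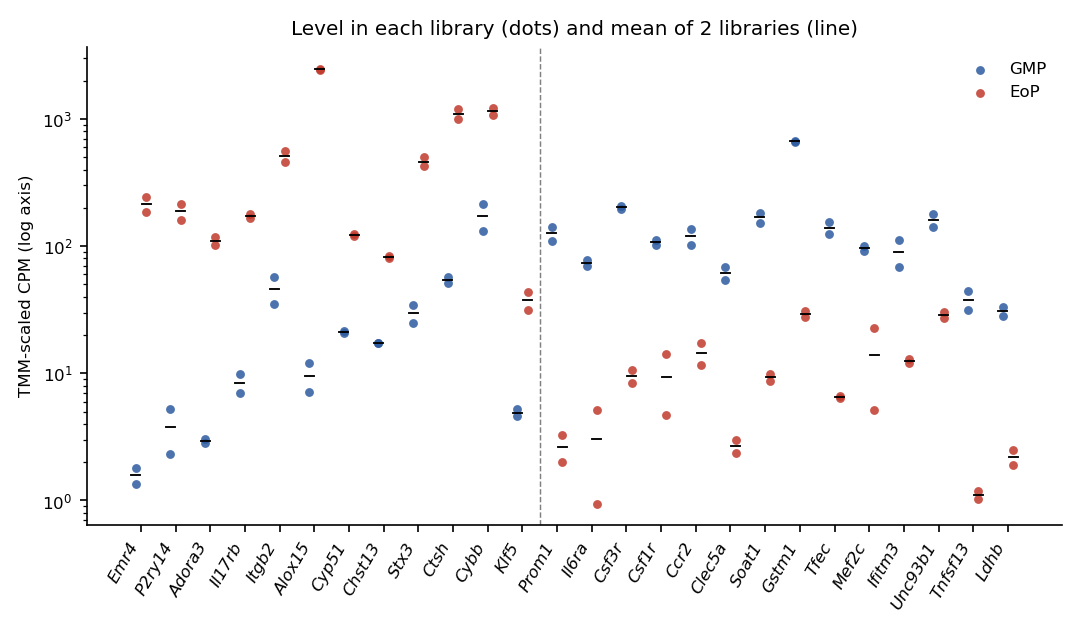
TMM-scaled CPM (log axis) of 26 genes in each library, GMP in blue and EoP in red, with a line at the mean of the 2 libraries. To the left of the dashed line stand 12 genes that rose in EoP and to the right 14 that fell. In none of them do the EoP values overlap the GMP values, and the 2 EoP libraries lie farthest apart for Il6ra, Csf1r and Mef2c.

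Kinases that act below immune receptors and integrins rose more often than they fell. Of 39 genes for tyrosine kinases and adaptors at 10 CPM or more, 16 rose and 3 fell (41% and 7.69%, median 0.53), and 7 to 13 rises and 0 to 3 falls with a library dropped. Fgr, a Src-family kinase of phagocytes, was at 2.66 and 2.83 CPM in GMP and 18.9 and 27.9 CPM in EoP (log2 fold change 3.09, SE 0.35, adjusted p = 0.000468). Both GMP libraries were under 3 CPM and both EoP libraries were above them. Fert2, for the kinase Fer, rose by 2.80 (SE 0.37) and Tec, a kinase that binds membrane phosphoinositides, by 2.03 (SE 0.29). Among phosphoinositide genes, the catalytic subunit gene Pik3cb (2.33, SE 0.23), the p110-gamma adaptor gene Pik3r6 (2.00, SE 0.26) and the phosphatase gene Inpp4b (2.59, SE 0.25) rose, out of 6 rises and 1 fall over 37 members, against 3 and 6 when scaled to library size alone. Rasgrp4, a Ras activator of mast cells and granulocytes, rose by 2.13 (SE 0.31).

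Adhesion molecules changed in both directions, with integrin chains among the rises and antigens of early progenitors and monocytes among the falls. Of 40 genes for integrins, selectins and other adhesion proteins at 10 CPM or more, 15 rose and 9 fell (37.5% and 22.5%), against 11 and 12 when scaled to library size alone, with 11 to 14 rises and 4 to 8 falls when a library was dropped. The beta-2 integrin chain gene Itgb2 was at 57.6 and 34.9 CPM in GMP and 454 and 563 CPM in EoP (log2 fold change 3.46, SE 0.35, adjusted p = 0.000234), and Itgam, for its partner CD11b, at 134 and 97.4 CPM in GMP and 551 and 713 CPM in EoP (log2 fold change 2.45, SE 0.35, adjusted p = 0.00161). Vcam1, a ligand of the alpha-4 integrins, was at 202 and 105 CPM in GMP and 1055 and 1000 CPM in EoP (log2 fold change 2.74, SE 0.50, adjusted p = 0.00529). The 2 GMP libraries differed nearly 2-fold in Vcam1, and both EoP libraries lay far above them. Vcam1 is also a marker of marrow stroma. The 16 tested stromal and endothelial markers, Vcam1 among them, summed to 314 and 213 CPM in GMP and 1209 and 1163 CPM in EoP. Most of both EoP sums was Vcam1 itself, so they do not show a rise of the other markers. Of the 4 at 10 CPM or more, Vcam1 and Pecam1 rose and Tie1 fell. The calls of Pecam1 and Tie1 were lost in some fits that drop a library. The part of stromal cells in the rise of Vcam1 was not tested. Itga2b, for CD41 (3.32, SE 0.30), the tetraspanin gene Cd63 (2.95, SE 0.29) and Cd24a (2.36, SE 0.34) also rose. Cd93, a surface protein of early progenitors, was at 710.4 and 626 CPM in GMP and 46.1 and 91.5 CPM in EoP (log2 fold change −3.28, SE 0.45, adjusted p = 0.00125). Ly6c2, a monocyte antigen gene with a near-identical neighbour, so that its counts are uncertain, fell from 411 and 285 CPM in GMP to 13.2 and 14 CPM in EoP.

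Of 29 genes for paired and lectin-like immune receptors, 15 rose and 4 fell (51.7% and 13.8%, median 0.98; 7 to 9 rises and 3 to 4 falls with a library dropped). Siglec5, the RefSeq name for the gene of Siglec-F, was at 18.6 and 15.5 CPM in GMP and 282 and 262 CPM in EoP (log2 fold change 3.99, SE 0.26, adjusted p = 3.08e-05). Of the activating and inhibitory receptors of myeloid cells, Cd300lb (2.89, SE 0.31) and Lilrb3 (2.84, SE 0.32) rose. The C-type lectin gene Klrb1f (2.85, SE 0.29) rose as well. Clec5a, a lectin receptor of monocytes and neutrophils, was at 68.7 and 54.1 CPM in GMP and 2.36 and 3 CPM in EoP (log2 fold change −4.50, SE 0.39, adjusted p = 0.000103). Mgl2, a galactose-type lectin of macrophages and dendritic cells, fell (log2 fold change −4.05, SE 0.62), as did Trem1, an activating receptor of neutrophils and monocytes (−3.95, SE 0.49). In all 3 the GMP libraries were above 10 CPM and the EoP libraries near or below 3 CPM.

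Enzymes of lipid mediators rose more often than they fell in EoP. Of 25 genes for such enzymes at 10 CPM or more, 13 rose and 3 fell (52% and 12%, median 0.82), and 8 to 10 rises and 1 to 2 falls with a library dropped. Alox15, the 12/15-lipoxygenase that oxidises arachidonic acid in eosinophils, was at 12 and 7.15 CPM in GMP and 2441 and 2481 CPM in EoP, a 256-fold rise. Lipg, for endothelial lipase, was at 0.484 and 1.04 CPM in GMP and 172 and 70.0 CPM in EoP (log2 fold change 7.32, SE 0.63, adjusted p = 0.000103). Both genes stood more than 50-fold apart in every pairing of an EoP with a GMP library. Cyp4f18, which inactivates leukotriene B4, was at 1.21 and 1.79 CPM in GMP and 30.5 and 32.3 CPM in EoP (4.40, SE 0.34), and Lpcat2, which makes platelet-activating factor, at 19.4 and 18.5 CPM in GMP and 143 and 146 CPM in EoP (2.93, SE 0.27). Tbxas1, for thromboxane synthase, rose by 2.72 (SE 0.37) and Alox12e, an epidermal-type lipoxygenase, by 2.66 (SE 0.28). Lpl, for lipoprotein lipase, was lower, at 13.2 and 16.2 CPM in GMP and 1.53 and 1.03 CPM in EoP (−3.53, SE 0.57).

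Genes of cholesterol synthesis were among those that rose, and a gene for cholesterol storage fell. Of 39 genes for sterol and fatty acid synthesis at 10 CPM or more, 11 rose and 2 fell (28.2% and 5.13%, median 0.51), with 5 to 9 rises and 1 fall when a library was dropped. Cyp51, the lanosterol demethylase, was at 20.7 and 21.4 CPM in GMP and 121 and 124 CPM in EoP (log2 fold change 2.54, SE 0.22, adjusted p = 0.000103). The 2 libraries of each cell type lay close together. Sc4mol, a sterol oxidase (1.58, SE 0.30), and Fads2, a desaturase of long fatty acids (2.17, SE 0.41), rose as well. Soat1, which esterifies cholesterol for storage, was at 184 and 153 CPM in GMP and 8.73 and 9.94 CPM in EoP, a fall of 18-fold (log2 fold change −4.17, SE 0.27, adjusted p = 2.46e-05).

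Genes for entry into and folding in the endoplasmic reticulum had 14 rises and 0 falls of 49 (28.6%, median 0.54), against 3 and 1 when scaled to library size alone (median 0.06), and 3 to 11 rises and 0 falls with a library dropped. Creld2, a disulfide isomerase of the stress response, was at 42.2 and 33.8 CPM in GMP and 214 and 110.0 CPM in EoP (log2 fold change 2.09, SE 0.32, adjusted p = 0.00237), and Sec11c, a signal peptidase subunit, at 58.5 and 58 CPM in GMP and 234 and 168 CPM in EoP (log2 fold change 1.79, SE 0.24, adjusted p = 0.00107). The first EoP library was the higher in both. Genes of the COP vesicle coats had 6 rises and 0 falls of 38, a share of rises (15.8%) near that of all genes, against 0 and 3 when scaled to library size alone, and 0 to 6 rises with a library left out. In the Golgi, the core fucosyltransferase gene Fut8 was at 117 and 134 CPM in GMP and 675 and 552 CPM in EoP (log2 fold change 2.29, SE 0.23, adjusted p = 0.000228), and Galnt6, which starts O-glycans, rose by 2.02 (SE 0.30), among 7 rises and 4 falls of 56 glycosylation genes, shares (12.5% and 7.14%) near those of all genes, against 5 and 8 when scaled to library size alone.

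Eosinophil granules store basic proteins together with sulfated glycosaminoglycans carried by serglycin, the product of Srgn. Srgn itself was at 1209 and 1302 CPM in GMP and 1063 and 776 CPM in EoP and did not pass (log2 fold change −0.45, SE 0.27, adjusted p = 0.253). Of 28 genes of serglycin and glycosaminoglycan synthesis, 9 rose and 3 fell (32.1% and 10.7%; 4 to 7 rises and 0 to 1 falls with a library dropped). Chst13, a chondroitin 4-O-sulfotransferase, was at 17.2 and 17.3 CPM in GMP and 84 and 80.6 CPM in EoP (log2 fold change 2.25, SE 0.22, adjusted p = 0.000179), and Ndst2, which sulfates heparin, at 49 and 46.9 CPM in GMP and 206 and 186 CPM in EoP (log2 fold change 2.03, SE 0.24, adjusted p = 0.000523). Csgalnact2, which starts the chondroitin chain, was at 168 and 160.4 CPM in GMP and 561 and 572 CPM in EoP (log2 fold change 1.79, SE 0.22). Within each cell type the 2 libraries of these 3 genes differed by less than 1.2-fold. Chpf, a chondroitin polymerising factor, was at 0.363 and 2.09 CPM in GMP and 23.7 and 18.6 CPM in EoP (log2 fold change 4.15, SE 0.65, adjusted p = 0.00271).

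Of 48 genes for SNARE proteins, Rab proteins and exocytosis, 15 rose and 1 fell (31.2% and 2.08%, median 0.33, against 7 and 7 with a median of −0.14 when scaled to library size alone; 6 to 8 rises and 0 to 1 falls with a library dropped). Stx3, a syntaxin that docks granules at the plasma membrane, was at 34.2 and 25 CPM in GMP and 498 and 424 CPM in EoP, a 15.5-fold rise (log2 fold change 3.96, SE 0.28, adjusted p = 4.33e-05). Snap23, the SNARE partner of syntaxins in leukocyte degranulation, was at 50.6 and 49.6 CPM in GMP and 176 and 129 CPM in EoP (1.61, SE 0.28), and Unc13d, which primes granules for release, at 26.1 and 33.8 CPM in GMP and 104 and 94.8 CPM in EoP (1.73, SE 0.23). Rab37 (2.25, SE 0.26), Rab11a (1.75, SE 0.27) and the tomosyn gene Stxbp5 (2.02, SE 0.25) rose too. Lysosomal genes had 14 rises and 6 falls of 56 (25% and 10.7%, against 5 and 14 when scaled to library size alone; 5 to 9 rises and 4 to 5 falls with a library dropped). Ctsh, for cathepsin H, was at 57.1 and 51.1 CPM in GMP and 1205 and 992 CPM in EoP, a 20.3-fold rise (log2 fold change 4.34, SE 0.33, adjusted p = 5.72e-05). The arylsulfatase gene Arsb was at 529 and 488 CPM in GMP and 2547 and 2781 CPM in EoP (2.39, SE 0.28), and Ctse, for cathepsin E, rose by 2.49 (SE 0.34) and the sialidase gene Neu1 by 1.67 (SE 0.23). The falls included genes typical of neutrophils and macrophages, Lyz2 (−2.90, SE 0.33), Cd68 (−2.76, SE 0.34) and Ctss (−2.42, SE 0.40).

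**Figure D3:**
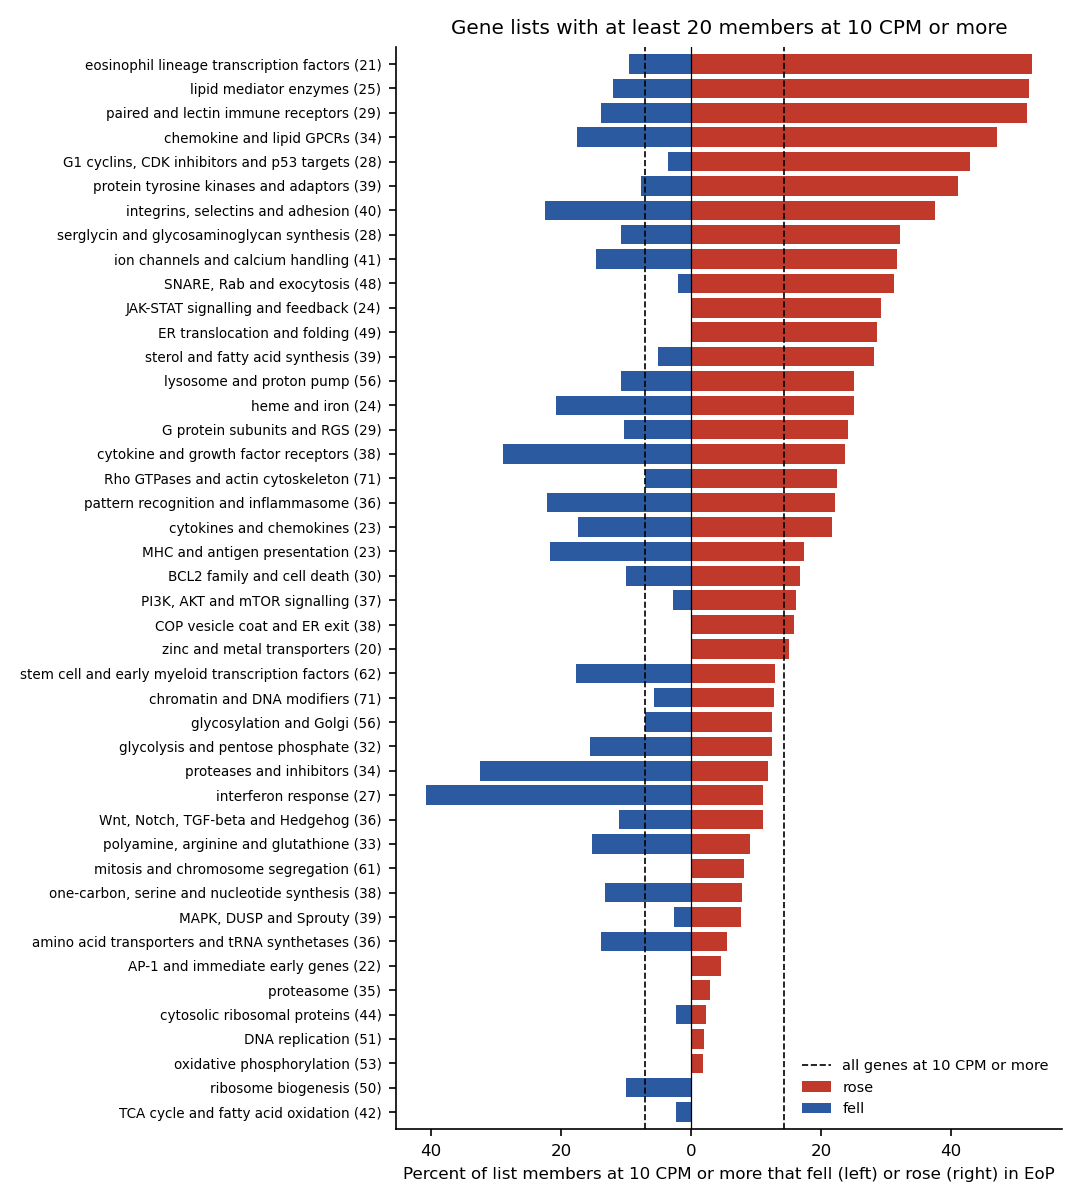
Percent of the members at 10 CPM or more that rose (red, to the right) or fell (blue, to the left) in EoP, for each gene list with at least 20 such members, their number in brackets. Dashed lines mark the shares over all 8788 genes, 14.3% and 7.04%. Eosinophil lineage factors, lipid mediator enzymes and lectin-like receptors have the highest shares of rises and interferon response genes the highest share of falls, while replication, respiratory chain, proteasome and ribosomal genes show few of either.

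Components of the phagocyte NADPH oxidase, which makes superoxide, rose in EoP in 5 of the 6 genes at 10 CPM or more, with 2 rises when scaled to library size alone and 2 to 3 rises when a library was dropped. Cybb, for the membrane subunit gp91phox, was at 215 and 132 CPM in GMP and 1083 and 1222 CPM in EoP (log2 fold change 2.73, SE 0.33, adjusted p = 0.000677), and Cyba, for its partner p22phox, at 29.8 and 34.4 CPM in GMP and 158 and 124 CPM in EoP (log2 fold change 2.14, SE 0.23, adjusted p = 0.000296). Of the cytosolic subunits, Ncf1 (1.00, SE 0.25) and Ncf4 (1.05, SE 0.20) rose. The call of Ncf1 was lost whichever library was dropped (adjusted p = 0.0694 to 0.126), and that of Ncf4 without either GMP library (0.0519 and 0.0699). Slc7a11, the cystine importer that feeds glutathione synthesis, was at 1.09 and 2.09 CPM in GMP and 61 and 59.6 CPM in EoP (log2 fold change 5.26, SE 0.33, adjusted p = 2.36e-05). The glutathione transferase gene Gstm1 went the other way, at 674 and 663 CPM in GMP and 30.9 and 27.8 CPM in EoP (log2 fold change −4.51, SE 0.47, adjusted p = 0.000276), and Mgst2, a membrane-bound transferase, fell by 3.84 (SE 0.49). Gstm1 has close relatives in the genome, and its counts may share reads with them. Metal transporters had 3 rises and 0 falls of 20 (15%), against 2 and 2 when scaled to library size alone. Of these, Slc30a2, which moves zinc into vesicles, rose by 3.81 (SE 0.42) and the copper transporter gene Slc31a2 by 1.51 (SE 0.23). Ion channel and calcium-handling genes had 13 rises and 6 falls of 41 (31.7% and 14.6%), against 10 and 10 when scaled to library size alone, with 7 to 10 rises and 1 to 5 falls when a library was dropped. The rises included the kinase gene Camk2d (3.52, SE 0.26), the ATP-gated channel gene P2rx1 (2.90, SE 0.27) and the reticulum pump gene Atp2a3 (1.62, SE 0.22). The falls were the ryanodine receptor genes Ryr1 (−3.05, SE 0.54) and Ryr3 (−5.08, SE 1.06), the channel subunit gene Cacnb2 (−2.62, SE 0.57) and the calcium-binding protein genes S100a4 (−2.72, SE 0.60), S100a8 (−2.17, SE 0.69) and S100a9 (−2.45, SE 0.68). None of these 6 falls held in all 4 fits that drop a library.

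Transcription factors of early myeloid and stem cells had 11 falls and 8 rises, which turned to 8 and 15 in the deposited RPKM, and those of the eosinophil lineage mostly rose. Of 62 genes for early factors at 10 CPM or more, 8 rose and 11 fell (12.9% and 17.7%, with 3 to 6 rises and 3 to 8 falls when a library was dropped), against 11 and 2 of 21 eosinophil lineage factors (52.4% and 9.52%; 7 to 9 and 1 to 2). Ikzf3, for the zinc finger protein Aiolos, was at 3.99 and 4.02 CPM in GMP and 240.5 and 312 CPM in EoP (log2 fold change 6.10, SE 0.38, adjusted p = 2.36e-05). Rxra, the retinoid X receptor, was at 3.15 and 6.26 CPM in GMP and 47.2 and 45.3 CPM in EoP (log2 fold change 3.31, SE 0.39, adjusted p = 0.000523), and Klf5, a zinc finger factor, at 5.2 and 4.62 CPM in GMP and 43.3 and 31.6 CPM in EoP (log2 fold change 2.92, SE 0.28, adjusted p = 0.000187). Both were under 7 CPM in each GMP library. Nfe2, a factor of erythroid and megakaryocytic genes, rose by 1.31 (SE 0.24). Tfec, a relative of the factor MITF in macrophages, was at 155 and 125 CPM in GMP and 6.37 and 6.69 CPM in EoP (log2 fold change −4.42, SE 0.42, adjusted p = 0.000169). Irf8, which directs monocyte and dendritic cell fate, was at 169 and 176 CPM in GMP and 6.13 and 29.1 CPM in EoP (log2 fold change −3.27, SE 0.56, adjusted p = 0.00404), and Mef2c at 92 and 100.3 CPM in GMP and 5.19 and 22.7 CPM in EoP (log2 fold change −2.76, SE 0.53, adjusted p = 0.00661). The second EoP library held more than 4 times the first in Irf8 and Mef2c and still lay below both GMP libraries. Irf8 was 1 of the 2 falls among the eosinophil lineage factors. The other was Cebpa, a C/EBP factor, whose call did not hold in every fit that drops a library. Sfpi1, the gene of PU.1, is in the same list and did not pass. Bcl6, a repressor, fell by 2.43 (SE 0.28). Klf4, a monocyte factor, fell by 2.86 (SE 0.53), a call lost without GMP replicate 2 (adjusted p = 0.0576). Of chromatin genes, Padi4, which converts arginine in histones to citrulline, was at 3.27 and 2.68 CPM in GMP and 40.9 and 41.1 CPM in EoP (log2 fold change 3.77, SE 0.28, adjusted p = 5.5e-05), and Asxl1, a Polycomb cofactor, at 82.2 and 77 CPM in GMP and 292 and 300.4 CPM in EoP (log2 fold change 1.90, SE 0.26, adjusted p = 0.00138).

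The promoters of the 2 called factors with the largest rises and the 2 with the largest falls in these lists, among those with an entry in the promoter table, are shown because their RNA changed and because the H3K4me3 lists, described further on, cover the same starts. Each is the 250 bases before the RefSeq start on GRCm38.p6, on the strand of the gene, from chrX:7967911-7968160 (minus) for Gata1, chr2:28621983-28622232 (minus) for Gfi1b, chr6:16898442-16898691 (minus) for Tfec and chr8:120736108-120736357 (plus) for Irf8. Capitals mark a match, on either strand, to AGATAA (a form of the GATA motif), TTGCNNAA (C/EBP) or AGGAAGT (ETS, bound by PU.1). Other forms of these motifs were not searched, so a promoter without capitals may still hold them.
Gata1: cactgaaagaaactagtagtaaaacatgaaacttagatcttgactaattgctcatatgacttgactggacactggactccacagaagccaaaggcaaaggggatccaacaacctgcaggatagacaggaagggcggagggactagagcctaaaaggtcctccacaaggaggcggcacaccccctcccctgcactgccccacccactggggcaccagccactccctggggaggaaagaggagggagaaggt
Gfi1b: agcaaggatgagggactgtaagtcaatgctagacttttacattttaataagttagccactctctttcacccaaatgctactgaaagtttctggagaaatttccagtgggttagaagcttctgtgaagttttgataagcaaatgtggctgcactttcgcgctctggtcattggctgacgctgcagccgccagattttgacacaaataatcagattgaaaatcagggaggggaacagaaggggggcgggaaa
Tfec: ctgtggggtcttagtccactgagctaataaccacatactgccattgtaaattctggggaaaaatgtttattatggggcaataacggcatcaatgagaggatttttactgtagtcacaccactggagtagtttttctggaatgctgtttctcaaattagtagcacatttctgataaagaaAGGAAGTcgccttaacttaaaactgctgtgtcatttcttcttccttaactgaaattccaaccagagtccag
Irf8: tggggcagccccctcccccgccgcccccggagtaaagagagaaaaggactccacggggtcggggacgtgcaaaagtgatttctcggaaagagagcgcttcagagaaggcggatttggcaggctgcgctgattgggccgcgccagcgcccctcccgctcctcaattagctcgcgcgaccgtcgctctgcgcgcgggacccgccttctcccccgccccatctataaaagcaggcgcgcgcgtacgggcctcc
The Tfec promoter held 1 match, to the ETS motif on the gene's own strand, and the other 3 held none of these letters. The Irf8 start lies 19 bases from the start in the count tables, and the other 3 coincide with theirs. Over the 7058 genes at 10 CPM or more with a promoter in the table, 5.31% of windows of this length held the GATA letters, 7.37% the C/EBP letters and 7.72% the ETS letters. A promoter was found for 78% of the genes that rose and 78.8% of those that fell, under the 80% needed, so a comparison of these groups would be void and none is made. Gata1 RNA was at 4.24 and 5.36 CPM in GMP and 69.6 and 60.3 CPM in EoP, a rise of 3.76 (SE 0.29). Gfi1b RNA was at 0.363 and 6.41 CPM in GMP and 43 and 25.9 CPM in EoP, a rise of 3.40 (SE 0.73), with the GMP libraries far apart.

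Few genes of DNA replication passed. Of 51 at 10 CPM or more, 1 rose and 0 fell (median 0.06, and −0.40 to 0.36 over the scalings), and 0 passed in the 4 fits that drop a library. Among 61 mitosis genes 5 rose and 0 fell, a share of rises (8.2%) under that of all genes. Their median was 0.49, against 0.15 for all genes. When scaled to library size alone, the mitosis median was 0.02 and that of all genes −0.32. Cell cycle brakes and G1 genes had more rises, 12 of 28 with 1 fall (42.9% and 3.57%), against 4 and 3 when scaled to library size alone and 6 and 2 under upper quartile factors (2 to 9 rises and 0 to 1 falls with a library dropped). Cdkn2d, an inhibitor of the kinases CDK4 and CDK6, was at 20.4 and 16.1 CPM in GMP and 47 and 46.6 CPM in EoP (log2 fold change 1.36, SE 0.23, adjusted p = 0.00411). The G1 cyclins parted, Ccnd3 at 50.2 and 34.3 CPM in GMP and 121 and 109.6 CPM in EoP (log2 fold change 1.45, SE 0.24, adjusted p = 0.00357) and Ccnd2 at 135 and 135 CPM in GMP and 31.2 and 53.4 CPM in EoP (log2 fold change −1.67, SE 0.36, adjusted p = 0.00986). The fall of Ccnd2 held only without EoP replicate 2 and had an adjusted p of 0.0586 to 0.0756 in the other 3 fits. In the MYC and E2F network, E2f2, an E2F of proliferating blood cells, was at 20.8 and 11.6 CPM in GMP and 98.9 and 99.2 CPM in EoP (log2 fold change 2.60, SE 0.28, adjusted p = 0.000357), and Mxd1, a MYC antagonist of maturing cells, at 26.3 and 26.2 CPM in GMP and 137 and 121 CPM in EoP (log2 fold change 2.30, SE 0.24, adjusted p = 0.000307). No EoP value overlapped a GMP value in these genes.

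Of 30 genes of the cell death machinery, 5 rose and 3 fell (16.7% and 10%), against 3 and 6 when scaled to library size alone. Dapk2, a calcium-dependent death kinase of granulocytes, was at 1.21 and 0.596 CPM in GMP and 17.8 and 16.3 CPM in EoP (log2 fold change 4.18, SE 0.44, adjusted p = 0.000271). Bcl2a1b, a survival gene, was at 0.605 and 0.149 CPM in GMP and 25.2 and 14.1 CPM in EoP (log2 fold change 5.58, SE 0.64, adjusted p = 0.000494). It belongs to a cluster of near-identical copies, so its counts are uncertain. Casp1, the inflammasome caspase, fell from 76.4 and 60.6 CPM in GMP to 25.5 and 30.8 CPM in EoP (−1.28, SE 0.23), a call lost without GMP replicate 1 (adjusted p = 0.0585).

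Few genes of the respiratory chain or of the citric acid cycle passed. Respiratory chain genes had 1 rise and 0 falls of 53 (0 and 9 when scaled to library size alone), citric acid cycle and fatty acid oxidation genes 0 and 1 of 42 (0 and 11 when scaled to library size alone, 3 and 1 in RPKM). Glycolysis and pentose phosphate genes had 4 rises and 5 falls of 32 (12.5% and 15.6%), against 1 and 10 when scaled to library size alone and 8 and 4 in RPKM. Ldhb, the heart-type lactate dehydrogenase, was at 33 and 28.3 CPM in GMP and 2.48 and 1.89 CPM in EoP (log2 fold change −3.82, SE 0.54, adjusted p = 0.00145), and Fbp1, an enzyme of gluconeogenesis, at 24.4 and 21.1 CPM in GMP and 1.89 and 2.06 CPM in EoP (log2 fold change −3.52, SE 0.47, adjusted p = 0.00111). Hk3, the hexokinase of myeloid cells, fell from 167 and 129 CPM in GMP to 35.6 and 33.8 CPM in EoP (−2.09, SE 0.28). Ldhc, the testis-type lactate dehydrogenase, was at 2.18 and 1.94 CPM in GMP and 206 and 143 CPM in EoP (log2 fold change 6.39, SE 0.37, adjusted p = 2.31e-05), so a pair of isoenzymes moved in opposite directions. Ribosome biogenesis genes had 0 rises and 5 falls of 50 (10%, median −0.43), none of them kept with a library left out, and the median ran from −0.89 to −0.12 over the scalings.

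Genes for secreted signals were divided. Among cytokines and chemokines at 10 CPM or more, 5 of 23 rose and 4 fell (21.7% and 17.4%, against 4 and 7 when scaled to library size alone; 4 to 5 rises and 2 to 4 falls with a library dropped). Ccl6, a chemokine of myeloid cells, was at 5.08 and 5.21 CPM in GMP and 207 and 117 CPM in EoP (log2 fold change 4.97, SE 0.44, adjusted p = 0.000118), and Csf1, the macrophage growth factor, at 15.4 and 26.8 CPM in GMP and 205 and 176 CPM in EoP (log2 fold change 3.18, SE 0.37, adjusted p = 0.000494). Il4, the type 2 cytokine, was at 1.33 and 1.19 CPM in GMP and 23.2 and 12.9 CPM in EoP (log2 fold change 3.81, SE 0.41, adjusted p = 0.000313), and Il15 rose by 1.72 (SE 0.26). As Csf1 rose, the gene of its receptor fell, as given above. Tnfsf13, which encodes the plasma cell survival factor APRIL, was at 44.3 and 31.4 CPM in GMP and 1.18 and 1.03 CPM in EoP (log2 fold change −5.09, SE 0.59, adjusted p = 0.000494), and Ccl9, a chemokine of myeloid cells, at 159.6 and 160.4 CPM in GMP and 41.8 and 48.6 CPM in EoP (−1.82, SE 0.21).

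Interferon response genes fell more often than they rose, 11 against 3 of 27 (40.7% and 11.1%, median −0.42; 0 to 3 rises and 8 to 9 falls with a library dropped). Ifitm3, an antiviral membrane protein, was at 113 and 68.1 CPM in GMP and 12 and 12.9 CPM in EoP (log2 fold change −2.86, SE 0.28, adjusted p = 0.000206), and Ifitm2, its neighbour, at 331 and 270.1 CPM in GMP and 56.4 and 64.5 CPM in EoP (−2.31, SE 0.33). Gbp3, a guanylate-binding protein, fell (log2 fold change −3.04, SE 0.41), as did Ifit2 (−2.62, SE 0.43). Innate sensors were divided, with 8 rises and 8 falls of 36, against 4 and 13 when scaled to library size alone and 11 and 5 in RPKM (2 to 6 rises and 5 to 10 falls with a library dropped). Unc93b1, which carries Toll-like receptors to endosomes, was at 179 and 142 CPM in GMP and 30.4 and 27.2 CPM in EoP (log2 fold change −2.48, SE 0.25, adjusted p = 0.000229), and Ly86, for MD-1, at 67.2 and 68.5 CPM in GMP and 3.77 and 8.83 CPM in EoP (log2 fold change −3.40, SE 0.42, adjusted p = 0.000676). The cytosolic sensors Nod1 (1.94, SE 0.29) and Nlrp1a (2.10, SE 0.32) rose. Ifi30, a lysosomal thiol reductase of antigen processing, was at 19.1 and 18.2 CPM in GMP and 189 and 164 CPM in EoP (log2 fold change 3.24, SE 0.24, adjusted p = 5.5e-05), whereas H2-DMa, which loads class II molecules, fell from 107 and 97.9 CPM in GMP to 21.5 and 27.7 CPM in EoP (−2.06, SE 0.26).

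Called genes were ranked by size where the higher cell type reached 10 CPM and the libraries did not overlap between cell types. Gene models, small RNAs and receptor segments were left out, as were the lists of granule, gate and Y-linked genes. The 12 largest rises among the rest were Serpinb2, Mkx, Alox15, Lipg, Emr4, Aspa, Ldhc, Ikzf3, B3galnt1, Perp, Igj and P2ry14. Serpinb2, an inhibitor of plasminogen activators, and Mkx, a homeobox factor of tendon, had no count in GMP. They were at 19.8 and 10.7 CPM and at 10.8 and 11.9 CPM in EoP, at least 72.6-fold and 57.2-fold higher against the floor of 3 counts over both GMP libraries. Aspa, which cleaves N-acetylaspartate, was at 0.968 and 0.894 CPM in GMP and 96.8 and 69.3 CPM in EoP (log2 fold change 6.45, SE 0.39, adjusted p = 2.31e-05). Perp, a membrane protein of cell junctions, was at 0.484 and 0.894 CPM in GMP and 51.4 and 30.9 CPM in EoP (5.90, SE 0.43) and the globoside synthase gene B3galnt1 at 0.363 and 0.447 CPM in GMP and 27.5 and 29.1 CPM in EoP (6.09, SE 0.37). Igj, the immunoglobulin joining chain, had 3 counts in GMP, and the ratio of normalised totals was 53.8 (95% counting interval 18.2 to 263). The list of 18 tested B cell markers to which it belongs summed to 70.3 and 49.5 CPM in GMP and 45.3 and 132 CPM in EoP. Of 34 proteases and protease inhibitors, 4 rose and 11 fell (11.8% and 32.4%), and the rises included the membrane protease gene Adam8, at 4.36 and 2.09 CPM in GMP and 131 and 126 CPM in EoP (log2 fold change 5.29, SE 0.41, adjusted p = 5.72e-05), and the matrix protease inhibitor gene Timp2, at 2.42 and 5.96 CPM in GMP and 54.5 and 60.2 CPM in EoP (3.80, SE 0.38).

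In the same ranking, the 12 largest falls were Oaz1-ps, Zfhx4, Slc7a2, Stox2, Muc4, Pm20d1, Igfn1, Gzmb, Prom1, Xirp2, Zan and Nav2. Prom1, the stem cell antigen CD133, was at 142 and 110.1 CPM in GMP and 2 and 3.26 CPM in EoP (log2 fold change −5.55, SE 0.51, adjusted p = 0.000136), a mean of 11.9 RPKM in GMP, and Nav2 was at 105 and 98.5 CPM in GMP and 1.42 and 4.11 CPM in EoP (−5.15, SE 0.51), a mean of 3.06 RPKM. Muc4 stood at 50.5 and 35.9 CPM in GMP and 0.354 and 1.2 CPM in EoP (−5.70, SE 0.55) with 1.31 RPKM in GMP, and Gzmb, for granzyme B, at 12.7 and 71.1 CPM in GMP and 0.708 and 0.943 CPM in EoP (−5.62, SE 0.86), uneven between the GMP libraries. The 17 tested markers of T and natural killer cells, Gzmb among them, summed to 47.7 and 105 CPM in GMP and 9.91 and 24.7 CPM in EoP. Several others passed 10 CPM at a low level per length. In GMP, Zfhx4 had a mean of 0.344 RPKM, Xirp2 0.323, Zan 0.298, Stox2 0.371, Igfn1 0.572 and Slc7a2 0.685 RPKM, beside a mean of 0.132 and 0.134 RPKM for the olfactory receptor genes in the same libraries. Of the 619 genes that fell, 66 were under 1 RPKM in GMP, and of the 1254 that rose, 5 were under 1 RPKM in EoP. With at least 1 RPKM required as well, a limit chosen after seeing the data, 1249 of 8619 rose (14.5%) and 553 fell (6.42%). Oaz1-ps, with no count in EoP, is a processed pseudogene, whose counts depend on how reads of its parent gene were placed.

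Some genes differed widely between the 2 libraries of a cell type. Of 8241 genes at 10 CPM or more in GMP, 35 differed over 4-fold between the GMP libraries, and of 8144 in EoP, 63 did between the EoP libraries. The immediate early gene Fos, which cells switch on within minutes of stimulation, was at 103 and 485 CPM in GMP and 853 and 2.91 CPM in EoP, and Dusp1, of the same class, at 78.9 and 612 CPM in GMP and 1448 and 7.2 CPM in EoP. Neither passed (adjusted p = 0.838 and 0.651), and the sign of both turned with the setting. The 23 tested genes of that class summed to 1187 and 4316 CPM in GMP and 8643 and 537 CPM in EoP. The sums were high in 1 library of each cell type, and the part of this spread in other genes was not tested.

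Basophil granule genes were also uneven, higher in the second EoP library. Prss34, a basophil protease, was at 497 and 437 CPM in GMP and 282 and 1782 CPM in EoP, and Mcpt8, another, at 220.2 and 196 CPM in GMP and 141 and 806 CPM in EoP. Cpa3, a protease of mast cells and basophils, was at 207 and 256 CPM in GMP and 322 and 740.1 CPM in EoP. None of the 3 passed (adjusted p = 0.219, 0.233 and 0.074). The 17 tested mast cell and basophil markers summed to 1751 and 1742 CPM in GMP and to 2018 and 4946 CPM in EoP. Of 14 at 10 CPM or more, 4 rose and 0 fell, and 4 markers had no count in EoP, Tpsb2 and Tph1 among them. The 4 rises were Hdc, Il4, Il1rl1 and Cd200r3, a basophil surface receptor gene at 4.6 and 5.07 CPM in GMP and 6.25 and 37.6 CPM in EoP, a call lost without EoP replicate 2 (0.50 on the log2 scale, adjusted p = 0.624) and without either GMP library (0.158 and 0.205). Cd200r3 stood far higher in the second EoP library, Il4 and Il1rl1 did not, and Hdc, which makes histamine, was at 181 and 194 CPM in GMP and 653 and 519.6 CPM in EoP (1.65, SE 0.28; adjusted p = 0.0543 without GMP replicate 1). In these sorted cells, a change in the share of a cell type and a change of RNA per cell cannot be told apart.

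H3K4me3, a histone mark found at active promoters, was listed by the authors as peaks of 1 library per cell type, 30645 peaks in GMP and 19816 in EoP, and a promoter peak is one that the authors' table assigns to the promoter of a gene. With 1 library each, the shares describe these lists, and their intervals cover counting error only. Of the 619 genes that fell, 80 (12.9%, 95% exact interval 10.4% to 15.8%) had a promoter peak in GMP and none in EoP, against 34 of the 1254 that rose (2.71%, 1.88% to 3.77%) and 2.72% of all 8788. The reverse, a promoter peak in EoP alone, held for 15 of the genes that rose (1.2%, 0.671% to 1.97%), for 1 that fell (0.162%) and for 0.592% of all. Most promoters were in both lists, 78.1% of the genes that rose, 67.5% of those that fell and 75.1% of all. These shares depended on the authors' assignment. Counting any peak within 1000 bases of a start, they were 90.7%, 77.2% and 94%, so the genes that rose were then below all genes. The lists differ in length, and the part of this in the shares was not tested beyond 1 alternative. When the same number of top-ranked peaks was taken from each list, GMP alone held 9.37% of the genes that fell and 1.8% of all, and EoP alone 8.21% of those that rose and 6% of all.

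Of the genes described above, Csf3r, Irf8, Tfec, Prom1 and Slc7a2 had a promoter peak in GMP and none in EoP, as did Ccl6, Il18rap, Lilrb3 and Nlrp1a, which rose. Il5ra, Adam8, Cybb and Cyp4f18, which all rose, had a peak in EoP alone. Of the genes that rose, 80.9% had a promoter peak in GMP, near the 77.8% of all 8788. With any peak within 1000 bases of a start, these shares were 93% and 96.3%. Genes with large rises and a promoter peak in GMP included Alox15, Emr4, P2ry14, Adora3, Ikzf3, Gata1, Lipg and Mkx. Their RNA was near or below 12 CPM there. Neither list had a peak assigned to the promoter of Serpinb2, Il17rb, Aspa, Ldhc or Igj. The same held for 21.6% of all 8788 genes, while 3.47% had no peak within 1000 bases of a start in either list.

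**Figure D4:**
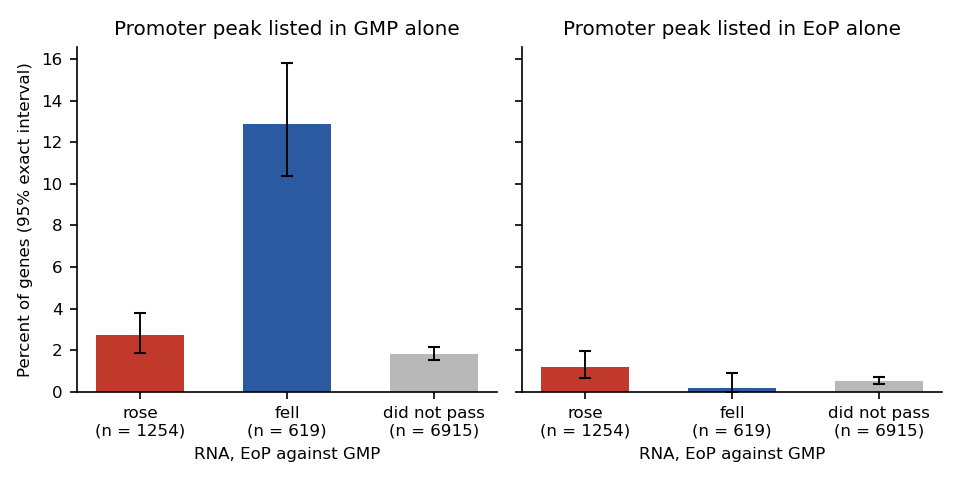
Percent of genes (bars, with 95% exact binomial intervals) whose promoter has an H3K4me3 peak in the GMP list alone (left) or in the EoP list alone (right), for genes whose RNA rose, fell or did not pass in EoP. Genes that fell have the highest share of GMP-only peaks, 12.9%, and genes that rose the highest share of EoP-only peaks, 1.2%.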

How the data were processed

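RNA was sequenced from 2 sorts each of GMP, EoP and mature eosinophils, and H3K4me3 from 1 library per cell type; groups were taken from the sample titles. The deposited RNA tables give estimated counts (whole numbers, expected counts) and RPKM per RefSeq transcript, per the file headers; the authors' RPKM use a library total larger than the listed counts. The submitters' processing notes name mm10, STAR 2.4.0c and Bowtie 1.0.0; no source used here gives the counter or the strand setting. The H3K4me3 peak lists deposited by the authors hold pileup signal, −log10 p and q values and fold enrichment, called per library, per the file headers, with no peak caller named.

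Counts were summed per gene and tested with edgeR 4.0.16 (R 4.3.3, default expression filter, TMM factors, quasi-likelihood test, Benjamini-Hochberg) in 1 fit of the 6 RNA libraries, with 3 residual degrees of freedom. The same code was tested on simulated data. CPM values are TMM-scaled. Alternatives used limma 3.58.1 and DESeq2 1.42.0, other scalings, filters, RPKM plus 0.5 or 0.1, a minimum 2-fold change, a replicate block and each library left out. Named genes were the 12 largest rises and falls under the limits given with them. From each of 60 lists came up to 6 called members per direction and 3 uncalled members. The gate genes and members uneven within a group were also named. Of all these, the text gives those with the clearest roles. Marker genes at 0 were added after their values were seen. The members and lists were chosen with earlier results of these data known. Exact binomial intervals have a level of 95%, and floors are 3 counts; both cover counting error only. Promoters are from RefSeq, GRCm38.p6, and their starts were matched to the listed starts within 1000 bases. Mature eosinophils entered the fit and are not described. Some genes that the rule names are not reported here.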

Additional observations from a re-analysis of the deposited data

How the results depend on the processing

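Among genes at 10 CPM or more, the main counts of 1254 rises and 619 falls became 547 and 1430 when scaled to library size alone, 374 and 261 with a minimum change of 2-fold, 2213 and 282 with RPKM plus 0.5, 2055 and 230 with RPKM plus 0.1, and 1976 and 1074 in a fit of the 4 GMP and EoP libraries only. With 1 library left out in turn they ran from 431 to 1970 rises and from 226 to 1022 falls, the highest when a mature eosinophil library was left out. Over all genes tested, the rises were 602 with library size alone, 421 with the 2-fold minimum, 2363 and 2183 with RPKM plus 0.5 and 0.1, 899 with at least 50 counts in 2 libraries, 2111 in the 4 libraries, and 459 to 2119 with 1 library left out. The falls were 352 and 291 with RPKM plus 0.5 and 0.1, 640 with at least 50 counts, and 376 to 3197 with 1 library left out. The cause of these moves was not tested, except that a fit without a library has fewer samples. Of 60 lists, 39 had more rises than falls, and 17 did with library size alone; 17 had more falls, and 26 did with upper quartile factors, 37 with library size alone, 9 with either RPKM setting and 9 to 19 with 1 library left out, the lowest without EoP replicate 2.

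Same-numbered deviations correlated at −0.0995 between GMP and EoP. With 2 libraries per cell type this is a single value, which cannot show whether the replicate numbers pair the sorts. With the replicate number as a block, 1508 genes fell over all genes tested against 2453, and 1101 rose and 567 fell at 10 CPM or more.

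Of the genes named, 12 of 3575 recomputed values changed sign, all in 4 uneven genes. Fos gave −0.00 with library size alone, −2.36 with limma-voom, −1.45 and −1.76 with RPKM plus 0.5 and 0.1, and −6.65 to 2.19 with 1 library left out (−0.18 without GMP replicate 1, and the lowest without the first EoP library). Dusp1 gave −1.17 with limma-voom, −0.64 and −0.77 with RPKM plus 0.5 and 0.1, and −5.58 to 3.34 with 1 library left out, the lowest without the first EoP library. With 1 library left out, Mcpt8 ran from −0.43 to 1.95 and Prss34 from −0.60 to 1.93, the lowest without EoP replicate 2. The cause was not tested.

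With a −log10 q of at least 10, 14.7% of the genes that rose had a promoter peak in GMP alone. The share was 31.8% for those that fell and 14.2% for all genes. In EoP alone the shares were 2.15%, 0% and 0.819%. With equal numbers of top-ranked peaks the shares, in the same order, were 1.44%, 9.37% and 1.8% in GMP alone. In EoP alone they were 8.21%, 4.85% and 6%. With any peak within 1000 bases of a start, 0% of the genes that fell had one in EoP alone. Depth limits genes at low counts, which the minimum of 10 CPM leaves out, and 2 libraries per cell type limit every test.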
